A study of Mus musculus with 45 samples.

Results

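The genes described here encode metalloproteases that cut the extracellular matrix and cell surface proteins, and the inhibitors that hold them in check. They are all rows of the authors' model table whose symbol begins with Adam, Adamts, Adamtsl, Mmp or Timp followed by a digit. The rule gave 61 of the 9626 probe sets in that table, which belong to 40 genes: 10 Adam, 15 Adamts, 2 Adamtsl, 10 Mmp and 3 Timp. Adamts3 alone holds 16 of the probe sets, Adamts9 holds 6 and Adamtsl1 holds 2, so these probe sets are not independent of each other. All 61 had a value and all 61 passed the variance filter used for the tests. The authors' table had itself been filtered on variance, so its members had to vary between arrays, and family genes outside it were not analysed here.

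The series measured RNA from the facial prominences of inbred wild-type C57BL6/J mouse embryos on 45 arrays, in 15 groups of 3 biological replicates. Ectoderm was peeled from mesenchyme after Dispase II treatment, and each sample pooled tissue from several embryos. Both layers of the frontonasal (fronto-nasal in the labels), maxillary and mandibular prominences were sampled on embryonic days E11.5 and E12.5. The 3 further groups came from E10.5, with frontonasal tissue as mesenchyme and mandibular tissue as both layers. Levels are given as log2 signal and differences in log2 units ± the fit's standard error, and p-values were adjusted over the 14472 probe sets tested. No treatment or mutation was involved. A call means an adjusted p under 0.05 in limma's moderated test, and counts by gene use the brightest probe set of each gene.

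ADAM proteins sit in the cell membrane, and the active ones shed growth factors, Notch ligands and cadherins from the surface. ADAMTS proteins are secreted and cut procollagens and large proteoglycans such as aggrecan and versican, while ADAMTS-like proteins share their binding domains but lack the catalytic one. Matrix metalloproteinases degrade collagens, gelatin and other matrix proteins, and several are anchored in the membrane. TIMPs block metalloproteinases, and TIMP3, which stays bound to the matrix, also blocks several ADAM and ADAMTS enzymes. In the mouse face, Adamts9 and Adamts20 are known for a shared part in closure of the palate.

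Each array detected 76.0% to 91.7% of the probe sets with a value, from 22008 to 26532. All 16 epithelial markers were higher in ectoderm than in mesenchyme, with a median difference of 3.55, and 11 of 12 cranial mesenchyme markers were lower, with a median of -2.53. Frontonasal mesenchyme went partly against its label: its mean level over the epithelial markers was 7.65 to 8.43 across arrays, against 5.60 to 6.99 in maxillary and 5.65 to 6.68 in mandibular mesenchyme. The arrays of lowest weight in a weighted fit were frontonasal ectoderm E12.5 replicate 3 (weight 0.09), frontonasal ectoderm E11.5 replicate 2 (0.17) and maxillary mesenchyme E12.5 replicate 1 (0.22). With the frontonasal groups left out, the members called numbered 56 in place of 54 for the layer, 44 in place of 42 for E12.5 against E11.5 in mesenchyme, 18 in place of 22 for the same step in ectoderm and 31 in place of 33 for its difference between layers. The replicates are separate pools per the labels. In bulk tissue, fewer cells of a type and less RNA per cell cannot be told apart.

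Promoter sequence from RefSeq (GRCm38.p6) was found for 23 of the 40 genes. The 250 bases before the start are shown for Adamts18, Adamts9, Adamts3 and Timp3, because the results on layer, prominence and age below turn on them. All 4 are written 5′ to 3′ on the strand of the gene, with matches to GGGCGG or its reverse complement in capitals. They lie at chr8:113848840-113849089 (minus strand), chr6:92943535-92943784 (minus strand), chr5:89883335-89883584 (minus strand) and chr10:86300162-86300411 (plus strand).
Adamts18: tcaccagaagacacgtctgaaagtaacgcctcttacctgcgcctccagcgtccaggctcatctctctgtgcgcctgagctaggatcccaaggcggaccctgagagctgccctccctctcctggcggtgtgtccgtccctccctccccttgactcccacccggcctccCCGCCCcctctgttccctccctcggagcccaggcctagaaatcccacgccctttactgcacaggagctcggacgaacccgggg
Adamts9: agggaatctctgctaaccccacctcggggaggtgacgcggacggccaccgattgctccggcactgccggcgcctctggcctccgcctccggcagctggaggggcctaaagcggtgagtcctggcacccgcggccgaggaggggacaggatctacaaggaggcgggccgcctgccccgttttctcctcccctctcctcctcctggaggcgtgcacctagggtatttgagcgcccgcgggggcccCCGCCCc
Adamts3: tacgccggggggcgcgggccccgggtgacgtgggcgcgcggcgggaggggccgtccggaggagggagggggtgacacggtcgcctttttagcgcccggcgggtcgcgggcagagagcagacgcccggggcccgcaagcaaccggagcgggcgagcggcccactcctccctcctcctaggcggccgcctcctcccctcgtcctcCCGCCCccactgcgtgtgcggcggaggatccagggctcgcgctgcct
Timp3: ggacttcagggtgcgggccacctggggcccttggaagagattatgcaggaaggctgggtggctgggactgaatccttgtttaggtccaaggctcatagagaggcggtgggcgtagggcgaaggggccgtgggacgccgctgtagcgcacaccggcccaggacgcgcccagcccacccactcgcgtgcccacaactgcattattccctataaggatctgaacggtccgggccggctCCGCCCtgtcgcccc
Searched on both strands of these 250 bases, GGGCGG was found in 15 of 23 members (65.2%) and in 32.9% of all 27025 genes with a promoter in the table. TATAAA was found in 2 of 23 (8.7%) and in 13% of all genes, and the members that hold it are Adamts1 and Mmp3. TGANTCA, the AP-1 motif known from stromelysin promoters, was found in Mmp3 alone among the members (4.35%) and in 6.87% of all genes. These shares take the first listed promoter of each gene. Adam19 has 3 promoters, and its promoter 2 also held TGANTCA. A match of one motif cannot overlap a match of another, and a match is a description of the sequence alone.

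Ectoderm was first compared with mesenchyme of the same age and prominence, over 7 matched pairs of groups with 21 arrays on each side. Most members were lower in ectoderm: 48 of 61 probe sets were called lower and 6 higher, or 27 and 6 of the 40 genes. The 48 include 16 probe sets of Adamts3 and 6 of Adamts9. By family, the genes called lower were 13 of 15 Adamts, 3 of 3 Timp, 5 of 10 Adam, 5 of 10 Mmp and 1 of 2 Adamtsl. Over all probe sets tested, 33.7% were lower and 35.9% higher. Among the 9395 tested probe sets of the authors' table, which passed the same filters as the members, 40.3% were lower and 38.9% higher. The median difference was -0.45 over the 40 genes and 0.03 over all probe sets tested. The arrays of the layers did not overlap for 18 of the 61 members, or 9 of the 40 genes, against 8.69% of all probe sets.

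Adamts18 was the one Adamts gene called higher in ectoderm. It encodes an ADAMTS enzyme that mouse mutants link to the eye and to branching epithelia. Its signal was 8.28 at the lowest, 9.01 at the median and 9.25 at the highest ectoderm array, and 5.30, 6.14 and 6.91 in mesenchyme. Every ectoderm array was above every mesenchyme array, and the gene was detected on all 45 arrays. The difference was 2.79 ± 0.06, a 6.94-fold higher signal in ectoderm (adjusted p = 4.41e-30), with the same sign in 7 of 7 pairs and a range of 2.30 to 3.35. Of the other 14 Adamts genes, 13 were called lower in ectoderm, and Adamts16 was not called (-0.04).

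Adamts3, which removes the amino-terminal propeptide of procollagen, was lower on 16 of 16 probe sets, by -0.75 to -1.74. On the probe set with the largest difference, ectoderm arrays ran from 5.27 through a median of 6.28 to 6.85, and mesenchyme arrays from 7.18 through 7.88 to 8.73. The layers did not overlap there (-1.74 ± 0.06, 3.34-fold lower, adjusted p = 3.07e-24). Adamts1, a protease of versican and aggrecan, also separated the layers completely. Its ectoderm arrays spanned 6.22, 6.84 and 7.28 at the lowest, median and highest, against 7.86, 8.28 and 8.77 in mesenchyme (-1.45 ± 0.05, adjusted p = 2.42e-25). Other proteoglycan-cutting members were lower too, among them Adamts15 (-1.05), Adamts4 (-1.04) and Adamts5 (-0.45). Adamts15 went the other way in the mandibular pair at E10.5, with group means of 5.95 in ectoderm and 5.37 in mesenchyme. At E12.5 its mandibular means were 5.35 and 7.93. Adamts5 went the other way in the maxillary pair at E12.5, with every ectoderm array above every mesenchyme array. The procollagen peptidase Adamts2 stood at -0.45.

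Adamts9 was lower in ectoderm on 6 of 6 probe sets, by -0.78 to -1.70, yet its layers overlapped. On the probe set with the largest difference, ectoderm arrays ranged from 5.57 to 8.94 with a median of 6.63, and mesenchyme arrays from 8.14 to 9.75 with a median of 8.51. The difference was -1.70 ± 0.07 (adjusted p = 3.33e-23), but its sign held in 5 of 7 pairs, which ran from -3.28 to 0.28. The high ectoderm arrays belonged to specific groups, which are described with the prominences.

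**Figure D1:**
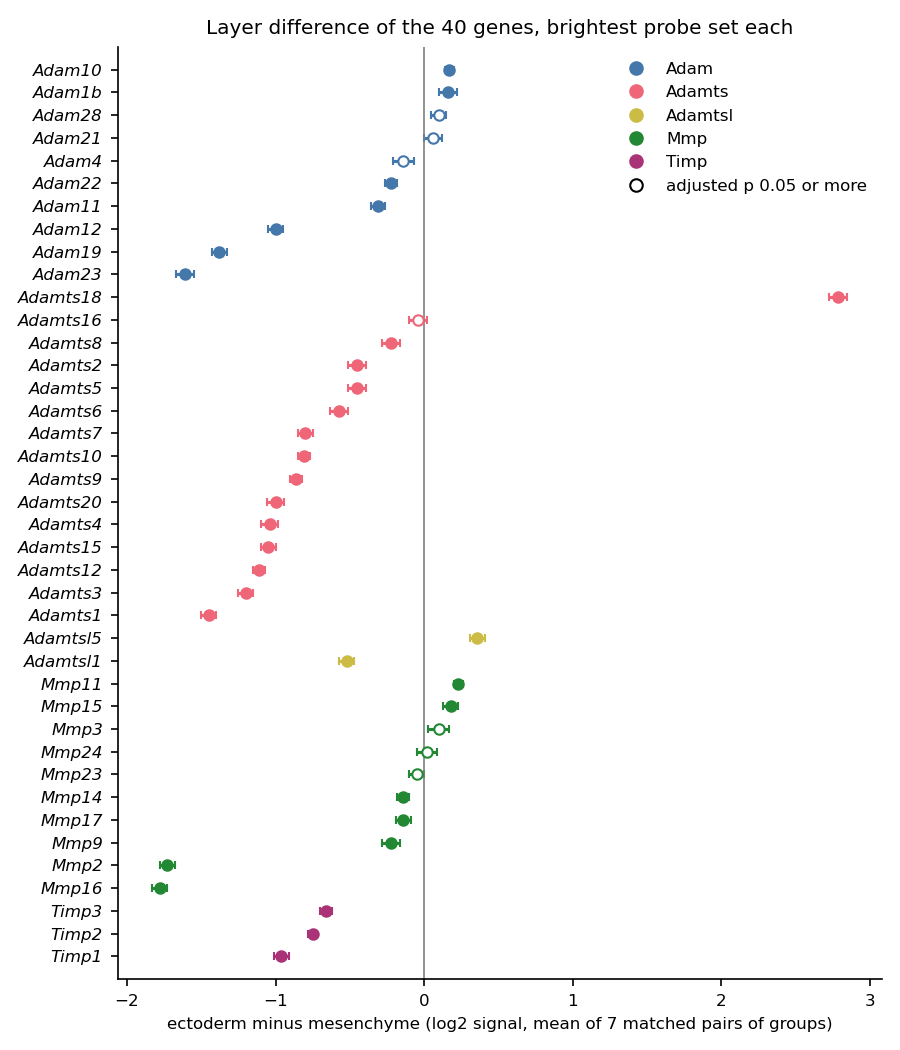
Ectoderm minus mesenchyme for the 40 genes, grouped by family, in log2 signal averaged over 7 matched pairs of groups. Points are estimates on the brightest probe set, bars are standard errors, and open points have an adjusted p of 0.05 or more. Adamts18 stands at 2.79 and the other Adamts genes between -1.45 and -0.04.

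Among the metalloproteinases, Mmp16 and Mmp2 differed most between the layers. Mmp16 is a membrane-type enzyme that can activate the gelatinase Mmp2. Mmp16 gave 5.38, 6.59 and 7.50 at the lowest, median and highest ectoderm array, and 7.89, 8.27 and 8.54 in mesenchyme. Its difference was -1.78 ± 0.05 (3.42-fold, adjusted p = 1.19e-26). Mmp2 gave 7.67, 8.87 and 9.26 in ectoderm against 10.06, 10.53 and 10.78 in mesenchyme, a difference of -1.73 ± 0.05 (3.32-fold, adjusted p = 3.56e-27). Both genes separated the layers on every array, and both held their sign in 7 of 7 pairs.

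Mmp14, the main cell surface activator of Mmp2, differed by -0.14, as did Mmp17 (-0.14), and Mmp9 by -0.22, all 3 called lower. None of these 3 separated the layers or held its sign in all 7 pairs. A few metalloproteinases were slightly higher in ectoderm, namely Mmp11 (0.23 ± 0.03, adjusted p = 2.32e-07) and the membrane-type Mmp15 (0.18 ± 0.05, adjusted p = 0.00091). Their layers overlapped, and each had the sign of its mean in 4 of 7 pairs. Mmp11, for example, ran from 8.34 to 9.00 in ectoderm and from 7.54 to 9.03 in mesenchyme. Mmp3, Mmp23 and Mmp24 were not called.

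Of the 10 membrane-bound Adam genes, 5 were lower and 2 higher in ectoderm. Among the tested probe sets of the authors' table, 40.3% were lower and 38.9% higher. Adam23, which lacks protease activity and binds secreted LGI proteins, gave 4.60, 5.68 and 6.03 at the lowest, median and highest ectoderm array and 6.32, 7.16 and 7.89 in mesenchyme. Its difference was -1.61 ± 0.06 (3.04-fold, adjusted p = 2.21e-23), with no overlap. Of the meltrins, Adam12 and Adam19 (-1.38) were lower as well, as were Adam11 (-0.31) and Adam22 (-0.22). Adam10, the main sheddase of Notch and cadherins, was marginally higher in ectoderm (0.17 ± 0.03, 1.13-fold, adjusted p = 1.61e-06), with overlapping arrays. The small differences of Adam1b (0.16 ± 0.06, adjusted p = 0.02) and of the ADAMTS-like gene Adamtsl5 (0.36 ± 0.05, adjusted p = 2.29e-07) also came with overlap.

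The 3 inhibitors followed the majority. Timp1, a soluble inhibitor, gave 5.47, 5.77 and 6.25 at the lowest, median and highest ectoderm array and 6.08, 6.78 and 7.44 in mesenchyme. Its difference was -0.96 ± 0.05 (adjusted p = 1.79e-19), with the same sign in 7 of 7 pairs. Timp2, which also takes part in the activation of Mmp2, ran from 7.93 to 8.63 in ectoderm and from 8.27 to 9.51 in mesenchyme (-0.75 ± 0.03, adjusted p = 8.43e-21). Timp3 spread most within ectoderm, from 5.35 through 7.59 to 9.05, against 7.71, 8.52 and 9.24 in mesenchyme. Its difference of -0.66 ± 0.04 (adjusted p = 4.01e-16) held its sign in 5 of 7 pairs, which ran from -2.02 to 0.54. In the frontonasal pair at E12.5 every Timp3 ectoderm array was above every mesenchyme array. All 3 inhibitors overlapped between layers.

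The substrates and partners of these enzymes divided by layer in different ways. Of 20 matrix substrates and linkers, 12 were lower in ectoderm and 5 higher, led by the basement membrane linker Nid1 (-2.64 ± 0.08) and the fibrillar collagen Col3a1 (-2.58 ± 0.10). Of 18 proteins that ADAMs shed, 12 were higher and 4 lower, with Cdh1 at 3.79 ± 0.09 and the Notch ligand Jag2 at 2.74 ± 0.05. Among 11 membrane regulators of ADAMs and related factors, 7 were higher and 3 lower, and the lowest were Sfrp1 (-1.66 ± 0.05) and Reck (-1.56 ± 0.04), an inhibitor of metalloproteinases. In the plasminogen system 6 of 8 were lower and 2 higher, with the activators Plat (-1.05 ± 0.06) and Plau (-0.91 ± 0.05) lower. The 14 other matrix proteases split 6 higher to 7 lower, with the membrane serine proteases St14 (3.07 ± 0.06) and Prss8 (2.05 ± 0.06) and the secreted Htra1 (2.47 ± 0.06) higher in ectoderm. Markers of other cells moved with the layer too: 12 of 12 endothelial (median -2.03), 11 of 11 erythroid (-1.99), 11 of 13 macrophage (-0.69), 13 of 13 skeletal muscle (-0.63), 9 of 12 neuronal (-0.59) and 11 of 13 cartilage and bone markers (-0.46) were lower in ectoderm. Their part in the members' differences was not tested.

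Prominences were then compared within mesenchyme over E11.5 and E12.5 together, 6 arrays a side. Frontonasal against mandibular mesenchyme gave 18 members higher and 20 lower, where 11.8% of all probe sets tested were higher and 8.48% lower. The sides did not overlap for 15 members, or 6 of the 40 genes, against 9.38% of all probe sets. By gene, 3 of 40 were higher and 14 lower. The 16 higher probe sets of Adamts3 make up most of the first count, so the count by gene is the closer description. Maxillary against mandibular mesenchyme gave 1 member higher and 13 lower (1 and 9 of 40 genes), against 4.15% and 5.84% of all probe sets. Frontonasal against maxillary gave 18 higher and 9 lower, against 11.8% and 6.99%, with no overlap for 21 members against 7.32%. Adamts3 again holds 16 of the 18, and by gene the balance turned round, with 3 of 40 higher, 8 lower and 6 without overlap. The comparisons share arrays, so the values stand side by side and no overlap between them is given.

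Adamts3 was higher in frontonasal mesenchyme on 16 of 16 probe sets against both neighbours, by 0.40 to 0.81 against mandibular and by 0.57 to 0.98 against maxillary. On the probe set with the largest layer difference, the E11.5 arrays read 8.49, 8.73 and 8.73 in frontonasal, 7.60, 7.41 and 7.78 in maxillary and 7.57, 7.49 and 7.34 in mandibular mesenchyme. At E12.5 they read 8.62, 8.44 and 8.57, then 7.56, 7.89 and 7.88, then 8.16, 8.13 and 8.29. Every frontonasal array was above every other mesenchyme array of these ages (0.77 ± 0.12 against mandibular, adjusted p = 2.22e-06, and 0.91 ± 0.12 against maxillary, adjusted p = 1.03e-07). Adamts20, a versicanase needed by migrating melanoblasts in mice, was higher against mandibular (0.48 ± 0.11, adjusted p = 0.00119). Its frontonasal arrays ran from 6.82 through 7.02 to 7.30 and its mandibular arrays from 6.34 through 6.52 to 6.83, overlapping at the edge.

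Adam23 showed the reverse order. Its frontonasal mesenchyme arrays ran from 6.32 through 6.48 to 6.58, the maxillary from 7.02 through 7.20 to 7.32 and the mandibular from 7.63 through 7.73 to 7.89. The prominences did not overlap at any step. The differences were -1.28 ± 0.11 for frontonasal against mandibular (2.42-fold, adjusted p = 2.08e-11), -0.73 ± 0.11 for frontonasal against maxillary (adjusted p = 4.83e-06) and -0.55 ± 0.11 for maxillary against mandibular (adjusted p = 0.000721). Adamts8, an aggrecan-cutting enzyme first described as an inhibitor of vessel growth, was lower in both upper prominences. It ran from 5.03 to 5.70 in frontonasal and from 5.24 to 5.82 in maxillary mesenchyme, below the 5.87 to 6.44 of mandibular mesenchyme (-0.83 ± 0.12, adjusted p = 4.12e-07, and -0.66 ± 0.12, adjusted p = 5.3e-05). It lay near the detection limit, with 5 of 6 arrays detected on each upper side.

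The inhibitors Timp1 and Timp3 were lowest in frontonasal mesenchyme as well. Timp1 arrays ran from 6.08 through 6.25 to 6.40 in frontonasal, from 6.33 through 6.70 to 7.06 in maxillary and from 6.78 through 7.05 to 7.19 in mandibular mesenchyme. All 3 steps were called: -0.78 ± 0.09 (adjusted p = 1.43e-08), -0.45 ± 0.09 (adjusted p = 0.000296, frontonasal against maxillary) and -0.33 ± 0.09 (adjusted p = 0.0124, maxillary against mandibular). The last of these fell short without maxillary mesenchyme E11.5 replicate 3 (-0.29, adjusted p = 0.0586). Timp3 arrays ran from 8.07 to 8.31 in frontonasal, from 8.53 to 8.79 in maxillary and from 8.49 to 9.24 in mandibular mesenchyme. Frontonasal was below mandibular (-0.72 ± 0.08, adjusted p = 7.68e-09) and below maxillary (-0.48 ± 0.08, adjusted p = 1.86e-05), while maxillary against mandibular was not called (-0.23 ± 0.08, adjusted p = 0.0681). That step was called with the groups compared alone (0.0269) and with array weights (0.0105). Timp2 was not called in any of the 3 comparisons (-0.11, -0.12 and 0.01), and its arrays overlapped throughout.

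Smaller prominence differences fell on single members. Mmp9, gelatinase B, was lower in maxillary than in mandibular mesenchyme (-0.62 ± 0.12, adjusted p = 0.00031), with arrays from 4.52 to 5.57 against 5.21 to 6.14 and 5 of 6 maxillary arrays detected. Adamts4, an aggrecanase, was highest in maxillary mesenchyme, at 6.98 to 7.73 against 6.68 to 7.23 in mandibular (0.39 ± 0.11, adjusted p = 0.0111) and 6.59 to 7.12 in frontonasal (-0.48 ± 0.11 for frontonasal against maxillary, adjusted p = 0.000689). Adamts5, another aggrecanase, was higher in frontonasal than in maxillary mesenchyme, at 6.01 to 6.75 against 5.38 to 5.98 (0.62 ± 0.11, adjusted p = 5.18e-05). Adam10 stood slightly higher in frontonasal than in mandibular mesenchyme (0.17 ± 0.05, adjusted p = 0.0166), a call lost with arrays centred on their medians (0.148) and without mandibular mesenchyme E11.5 replicate 3 (0.0655). Adamts18, the ectodermal member, was 0.38 ± 0.12 higher in frontonasal than in maxillary mesenchyme (adjusted p = 0.0236). Its adjusted p rose to 0.053 with arrays centred on their medians. It rose to 0.132 without maxillary mesenchyme E11.5 replicate 3 and to 0.0505 without maxillary mesenchyme E12.5 replicate 3. Without replicate 2 of frontonasal mesenchyme at E11.5 or E12.5 it was 0.0522 and 0.0526.

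**Figure D2:**
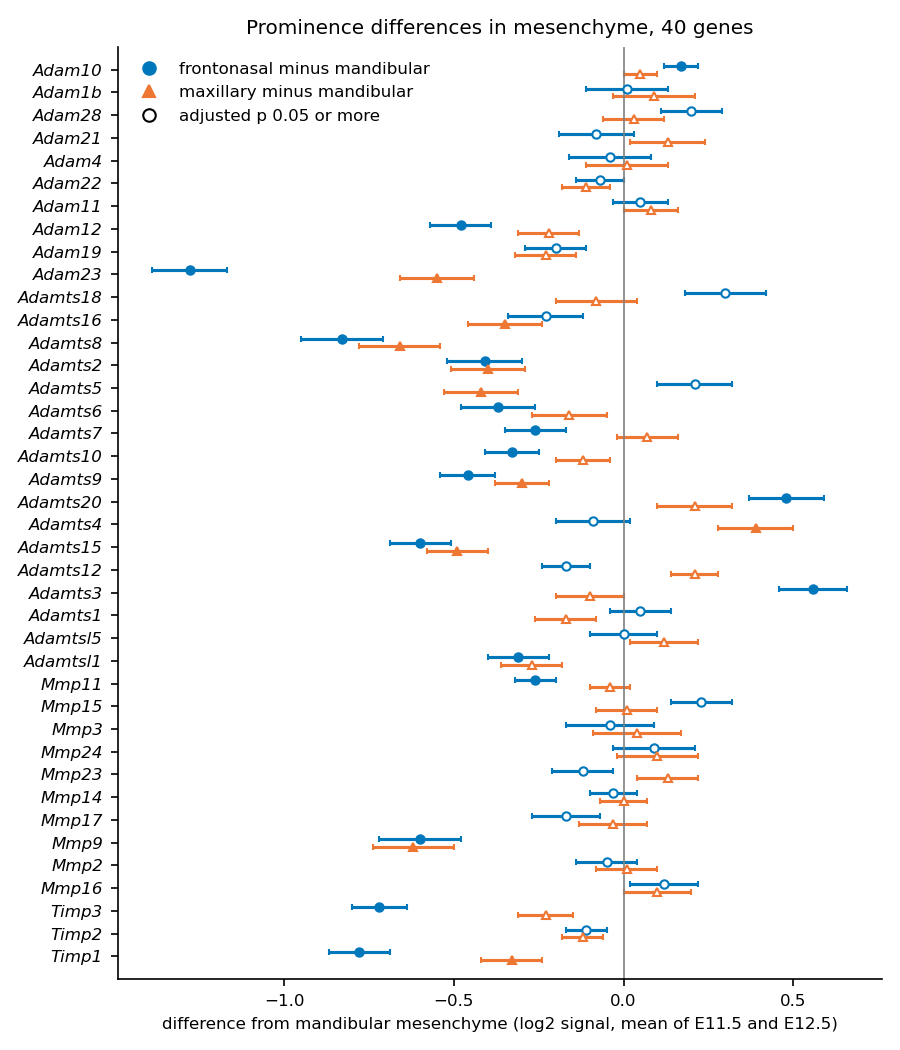
Differences of the 40 genes from mandibular mesenchyme, in log2 signal averaged over E11.5 and E12.5. Circles are frontonasal and triangles maxillary mesenchyme, bars are standard errors, and open symbols have an adjusted p of 0.05 or more. Adam23 stands at -1.28 and -0.55, and Adamts3 at 0.56 and -0.10.

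Other cell types moved with these comparisons. All 16 epithelial markers were higher in frontonasal than in mandibular mesenchyme (median 1.76) and than in maxillary mesenchyme (1.81). Skeletal muscle markers were lower in 11 of 13 cases in frontonasal (median -1.38) and in 11 of 13 in maxillary against mandibular mesenchyme, and their mean level was 6.81 to 6.90 in mandibular mesenchyme at E11.5 and 5.96 to 6.05 in frontonasal. Neuronal markers were higher in 9 of 12 cases in frontonasal and in 8 of 12 in maxillary mesenchyme against mandibular. Olfactory placode and forebrain markers were higher in frontonasal mesenchyme, in 8 of 10 cases against mandibular (median 1.53) and in 7 of 10 against maxillary (1.37). Cartilage and bone markers were lower in 8 of 13 cases in maxillary against mandibular mesenchyme (-0.40) and higher in 8 of 13 in frontonasal against maxillary (0.53). The part of these cells in the members' differences was not tested.

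Within ectoderm, frontonasal against mandibular gave 22 members higher and 1 lower (10 and 1 of the 40 genes), where 11.3% of all probe sets were higher and 11.8% lower. Maxillary against mandibular gave 15 higher and 2 lower (4 and 2 by gene), against 3.03% and 2.01% of all. Frontonasal against maxillary gave 1 higher and 3 lower, against 4.31% and 4.93%. Fitted to the groups compared alone, the members called numbered 11, 9 and 1 in place of 23, 17 and 4, and without mandibular ectoderm E11.5 replicate 1 the second was 9.

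Adamts9 had the largest differences from mandibular ectoderm, and these lay at E11.5. The E11.5 arrays read 8.94, 8.46 and 8.74 in frontonasal and 8.26, 8.76 and 8.41 in maxillary ectoderm, against 6.48, 7.13 and 6.48 in mandibular ectoderm. At E12.5 all 3 prominences were low, with 6.21, 6.66 and 5.89, then 6.85, 6.73 and 6.63, then 6.61, 6.32 and 6.20. At E11.5 the frontonasal and maxillary ectoderm thus reached the level of the mesenchyme, whose frontonasal arrays read 8.66, 8.50 and 8.14. Averaged over both days, frontonasal was above mandibular by 0.95 ± 0.12 (adjusted p = 3.27e-07) and maxillary by 1.07 ± 0.12 (adjusted p = 8.47e-08). By day, the frontonasal difference ran from -0.12 to 2.02 and the maxillary from 0.36 to 1.78. All 6 probe sets of Adamts9 were called in both comparisons, by 0.60 to 0.95 and by 0.52 to 1.07. The authors' deposited table gives the 6 probe sets q-values of 3.86e-08 to 0.000133 for the interaction of age, prominence and layer.

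Cranial mesenchyme markers at E11.5 had a mean level of 7.79 ± 0.58 in frontonasal, 7.80 ± 0.17 in maxillary and 7.93 ± 0.67 in mandibular ectoderm (SD, n = 3). Olfactory placode and forebrain markers were high at E11.5 in frontonasal ectoderm (7.50 to 7.96) but not in maxillary (5.84 to 6.18) or mandibular ectoderm (5.67 to 5.94). Neuronal markers stood at 6.95 to 7.40, 5.82 to 6.79 and 5.51 to 6.51 in the same order, and their part was not tested.

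**Figure D3:**
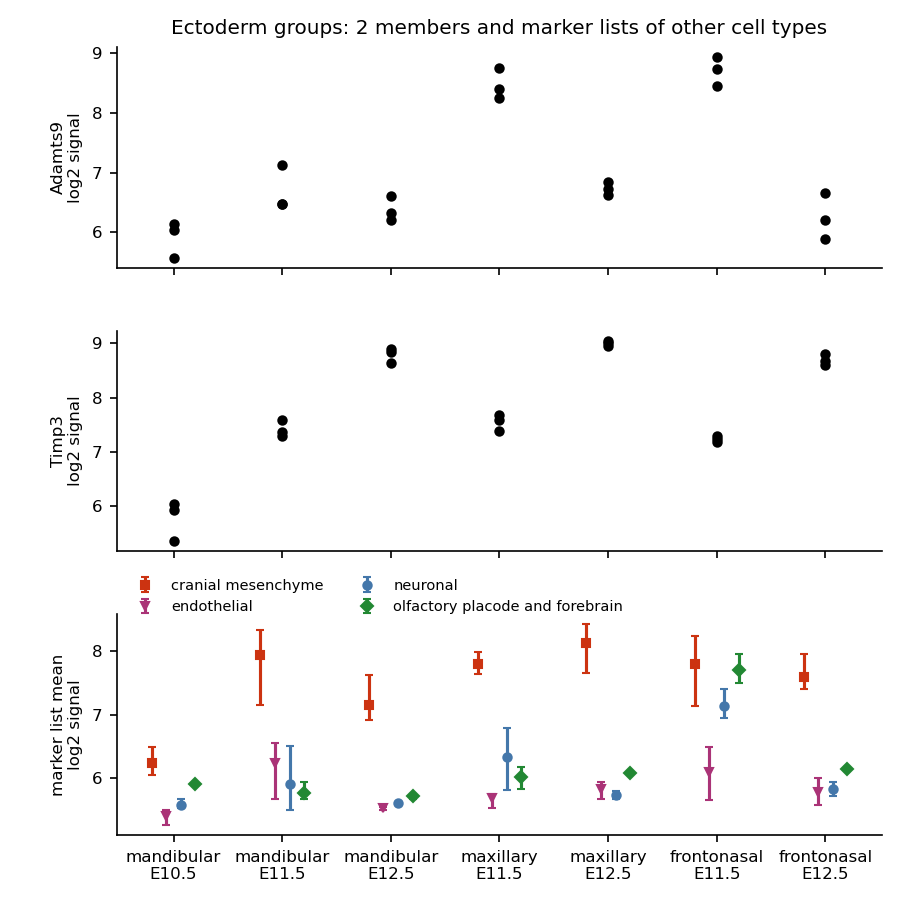
Log2 signal of Adamts9 (top) and Timp3 (middle) on each of the 3 arrays of the 7 ectoderm groups, with the mean level of 4 marker lists below (points are group means, bars run from the lowest to the highest array). Adamts9 is at 8.26 to 8.94 in maxillary and frontonasal ectoderm at E11.5 and at or below 7.13 elsewhere, and Timp3 is at 5.35 to 6.04 at E10.5, 7.19 to 7.68 at E11.5 and 8.61 to 9.05 at E12.5.

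Mmp16 was higher in frontonasal ectoderm, with arrays from 6.63 through 7.02 to 7.50, than in mandibular ectoderm, with 6.07, 6.16 and 6.64 (0.72 ± 0.10, 1.65-fold, adjusted p = 1.01e-06). Against maxillary ectoderm the difference was 0.42 ± 0.10 (adjusted p = 0.00391, and 0.0505 with the groups compared alone). Adamts5 was highest in maxillary ectoderm at E12.5, where the arrays read 6.64, 6.51 and 6.45, against 5.89, 5.73 and 5.66 in frontonasal and 5.39, 5.12 and 5.19 in mandibular ectoderm. Over both days maxillary was above mandibular by 0.88 ± 0.11 (adjusted p = 9.41e-07) and frontonasal by 0.50 ± 0.11 (adjusted p = 0.00172). Frontonasal against maxillary stood at -0.38 ± 0.11 (adjusted p = 0.0261), a call lost without any of 4 single arrays (0.0656 to 0.0939) and with the groups compared alone (0.104). Adamts15, a versicanase, was lower in frontonasal than in maxillary ectoderm, at 4.84 to 5.88 against 5.44 to 6.20 (-0.48 ± 0.09, adjusted p = 0.000267), with 4 of 6 frontonasal arrays detected. Averaged over both days, Adam28, a membrane protease known from lymphocytes, was lower in both upper prominences (-0.34 ± 0.09, adjusted p = 0.00709, and -0.36 ± 0.09, adjusted p = 0.0106). The first rose to 0.0977 with the groups compared alone, and the second to 0.0589 and 0.0564 without mandibular ectoderm E11.5 replicate 2 or E12.5 replicate 1. The Adam28 difference lay at E11.5, with group means of 4.45 in frontonasal, 4.55 in maxillary and 5.24 in mandibular ectoderm. At E12.5 these means were 4.48, 4.35 and 4.38. Its signal was low, from 4.20 to 5.51 over all arrays. Mmp11 was lower in maxillary than in mandibular ectoderm, at 8.48 to 8.72 against 8.76 to 9.00 (-0.24 ± 0.06, adjusted p = 0.0188), a call lost with the groups compared alone (0.052) and without mandibular ectoderm E11.5 replicate 1 (0.0837) or maxillary ectoderm E11.5 replicate 2 (0.0685). Timp1 and Timp2 were not called between ectoderm prominences, except for Timp1 in frontonasal against mandibular after quantile normalization (-0.24, adjusted p = 0.0446), and Timp3 differed in frontonasal against maxillary alone (-0.31 ± 0.08, adjusted p = 0.0126), with 0.0756 for the groups compared alone and 0.0578 after quantile normalization. In frontonasal against mandibular ectoderm, olfactory placode and forebrain markers were higher in 9 of 10 cases (median 0.89), neuronal in 8 of 12 (0.93) and macrophage in 6 of 13 (0.27), and their part was not tested.

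From E11.5 to E12.5 the Adamts genes and 6 of the 10 Mmp genes rose in mesenchyme, and most Adam genes were not called. Of the 61 members 40 were higher and 2 lower at E12.5, or 26 and 2 of the 40 genes, where 19.4% of all probe sets were higher and 17.3% lower. Among tested probe sets of the authors' table, 26.2% were higher and 20.3% lower. All 15 Adamts genes were called higher on their brightest probe set, by 0.29 to 0.69, with a family median of 0.42. By probe set 28 of 35 were higher, and Adamts3 disagreed within itself, with 9 of its 16 probe sets called higher and 7 not called. These are averages over 3 prominences, and 12 of the 15 genes had the same sign in each of them. Adamts15 read 6.96, 6.64 and 6.86 at E11.5 and 6.43, 6.55 and 6.27 at E12.5 in frontonasal mesenchyme, a difference of -0.40, against 1.42 in mandibular mesenchyme, whose group mean went from 6.51 to 7.93. Adamts18 ran from -0.19 to 0.77 by prominence and Adamts3 from -0.06 to 0.48. Of the Mmp genes 6 of 10 were higher and 0 lower (median 0.22), of the Adam genes 2 of 10 were higher and 1 lower (median 0.07), and of the Timp genes 2 were higher and 1 lower.

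Adamtsl1, a secreted ADAMTS-like glycoprotein also called punctin, had the largest change. Its E11.5 mesenchyme arrays ran from 6.15 through 6.63 to 6.89 and its E12.5 arrays from 7.40 through 7.99 to 8.26. The ages did not overlap (1.40 ± 0.08, 2.64-fold, adjusted p = 6.55e-17), and the second probe set rose by 1.25 ± 0.09. Mmp14 rose from 9.77, 9.93 and 10.05 at the lowest, median and highest E11.5 array to 10.63, 10.82 and 11.01 at E12.5, again without overlap (0.90 ± 0.06, 1.87-fold, adjusted p = 1.16e-15). Adamts9 rose by 0.83 ± 0.10 (adjusted p = 1.68e-08), most in mandibular mesenchyme, where it went from 8.51, 8.39 and 8.16 to 9.56, 9.67 and 9.75. In frontonasal mesenchyme the change was 0.25.

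The inhibitors did not move as one. Timp2 rose without overlap, from 8.88 to 9.18 at E11.5 to 9.25 to 9.51 at E12.5 (0.39 ± 0.05, adjusted p = 1.56e-07). Timp3 rose by 0.27 ± 0.07 (adjusted p = 0.00157), by 0.68 in mandibular and by 0.01 in frontonasal mesenchyme. Timp1 fell (-0.23 ± 0.07, adjusted p = 0.0157), as did Adam11, a relative of Adam23 without protease activity (-0.21 ± 0.07, adjusted p = 0.0149). Matrix substrates rose in 14 of 20 cases with 0 lower, led by Col1a1 (1.64 ± 0.13), Acan (0.95 ± 0.10) and Eln (0.94 ± 0.07). Cartilage and bone markers rose in 9 of 13 cases with 1 lower (median 0.61), skeletal muscle markers in 11 of 13 (0.54), cranial mesenchyme in 6 of 12 (0.41) and epithelial in 8 of 16 (0.33), while erythroid markers were lower in 9 of 11 (-0.87), and their part was not tested.

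In ectoderm the same step went the other way for more members: 5 were higher and 17 lower, or 4 and 11 of 40 genes, where 11.9% of all probe sets were higher and 16.8% lower. Adamtsl1 rose here as well, from 5.71, 5.88 and 6.07 at the lowest, median and highest E11.5 array to 7.19, 7.49 and 7.77 (1.57 ± 0.08, 2.97-fold, adjusted p = 5.55e-18). Timp3 rose from 7.19, 7.36 and 7.68 to 8.61, 8.85 and 9.05 (1.43 ± 0.07, 2.7-fold, adjusted p = 1.45e-18). For both genes the ages did not overlap, and the change was nearly equal in the 3 prominences, at 1.54 to 1.60 for Adamtsl1 and 1.38 to 1.46 for Timp3. Adamts5 rose by 0.69 ± 0.09 (adjusted p = 2.43e-07). Adamts9 fell on 6 of 6 probe sets, by -0.63 to -1.51, and by -2.46 in frontonasal against -0.32 in mandibular ectoderm on the probe set with the largest change (-1.51 ± 0.10, adjusted p = 1.84e-14).

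Mmp15 fell without overlap, from at least 7.71 with a median of 7.81 at E11.5 to 7.02, 7.29 and 7.45 at the lowest, median and highest E12.5 array (-0.55 ± 0.07, adjusted p = 1.2e-07). Adam23 (-0.64 ± 0.09, adjusted p = 9.82e-07) and Timp2 (-0.28 ± 0.05, adjusted p = 6.16e-05) fell with some overlap. Timp1 was not called (-0.18 ± 0.07, adjusted p = 0.0662), but it was in 6 other settings: after quantile normalization (0.0308), with array weights (0.00367), without the 3 arrays of lowest weight (0.0146), and without mandibular ectoderm replicate 1 at E11.5 (0.0152) or E12.5 (0.0498) or frontonasal ectoderm E12.5 replicate 3 (0.013). Among the substrates, the cartilage linker Hapln1 (-2.70 ± 0.09) and Col2a1 (-1.23 ± 0.07) were lower in ectoderm at E12.5. Neuronal markers fell in 11 of 12 cases (median -0.70), erythroid markers in 7 of 11 (-0.77) and olfactory placode and forebrain markers in 6 of 10 (-0.55). In frontonasal ectoderm, where Adamts9 changed by -2.46, the mean level of the olfactory placode and forebrain markers was 7.70 at E11.5 and 6.15 at E12.5. Of 12 cranial mesenchyme markers 2 rose and 4 fell (-0.12). The part of these cells in the members' changes was not tested.

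**Figure D4:**
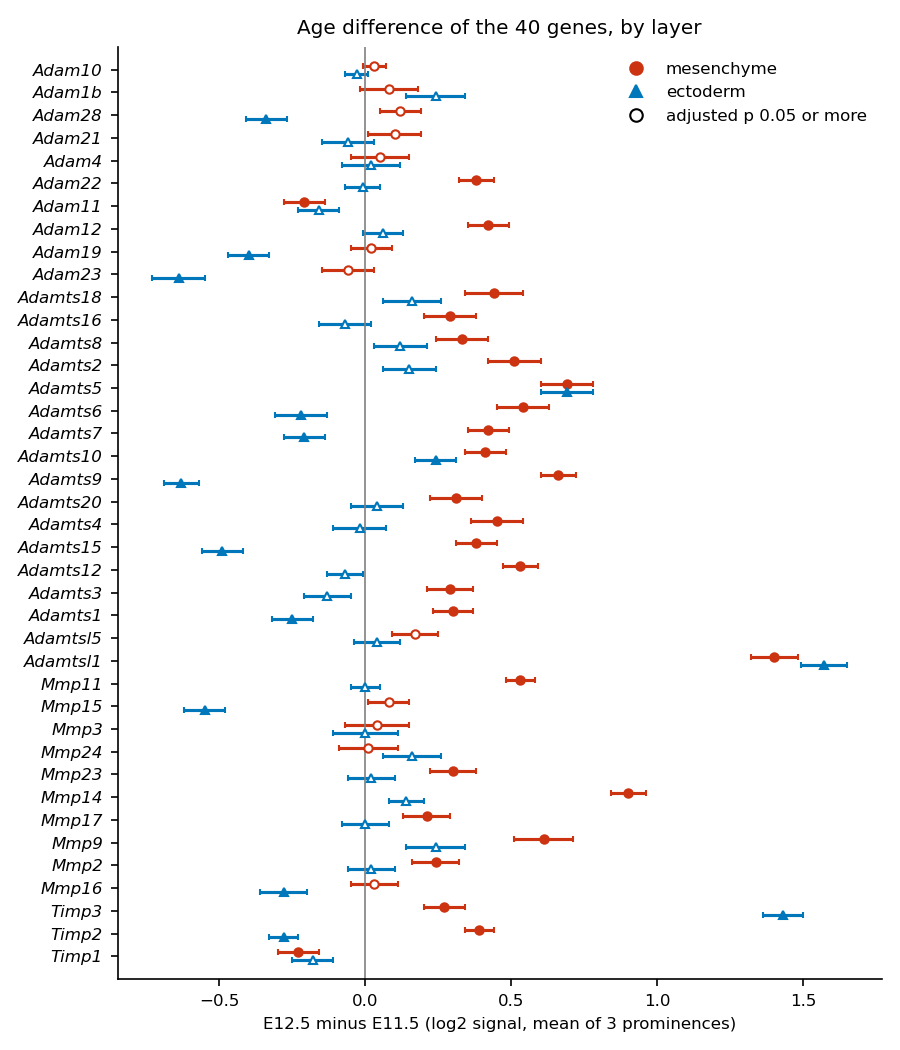
E12.5 minus E11.5 for the 40 genes in mesenchyme (circles) and ectoderm (triangles), in log2 signal averaged over 3 prominences, with standard errors as bars and open symbols where the adjusted p was 0.05 or more. All 15 Adamts genes are called higher in mesenchyme, between 0.29 and 0.69, and Timp3 stands at 0.27 in mesenchyme and 1.43 in ectoderm.

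The difference between these age changes was tested as an interaction. In 32 members the change in ectoderm lay below that in mesenchyme and in 1 above it, or 20 and 1 of 40 genes, where 15.5% of all probe sets were lower and 8.36% higher. Among the Adamts genes 10 of 15 were lower. Adamts9 had the largest value (-2.34 ± 0.14, adjusted p = 3.43e-15), followed by Timp3 on the other side (1.17 ± 0.09, adjusted p = 5.59e-12) and Adamts15 (-0.86 ± 0.10, adjusted p = 3.12e-08). Timp2 also differed (-0.67 ± 0.07, adjusted p = 6.83e-09), and Timp1 was not called (0.04 ± 0.11, adjusted p = 0.844). Adamtsl1, which rose in both layers, was not called either (0.17). Marker lists moved in the direction of most members: cartilage and bone in 10 of 13 cases (median -0.62), olfactory placode and forebrain in 7 of 10 (-0.79), neuronal in 8 of 12 (-0.76), cranial mesenchyme in 7 of 12 (-0.73), skeletal muscle in 9 of 13 (-0.45), endothelial in 7 of 12 (-0.39) and epithelial in 6 of 16 (-0.40). Erythroid markers were higher in 5 of 11 (0.21). The part of these cells was not tested.

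A second interaction asked whether the frontonasal to mandibular difference depended on the layer. In 24 members it was higher in ectoderm than in mesenchyme and in 8 lower, or 19 and 3 by gene, where 8.63% of all probe sets were higher and 9.83% lower. Adam23 (1.40 ± 0.16, adjusted p = 2.32e-08) was lower in frontonasal mesenchyme but not called in ectoderm (0.12). Adamts9 (1.40 ± 0.17, adjusted p = 1.01e-07) was called in both layers with opposite signs. Adamts8 (0.95 ± 0.16, adjusted p = 2.95e-05), Timp1 (0.64 ± 0.13, adjusted p = 0.000323) and Timp3 (0.58 ± 0.12, adjusted p = 0.000267) differed in the same direction, and Timp2 was not called (0.03 ± 0.09). All 16 epithelial markers had an interaction of the opposite sign (median -1.85) and 11 of 13 skeletal muscle (median 1.35) and 6 of 13 macrophage markers (0.36) one of the same sign, and their part was not tested.

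The earlier step, from E10.5 to E11.5, was measured in frontonasal and mandibular mesenchyme, where 22 members were higher at E11.5 and 1 lower (16 and 1 of 40 genes), against 14.8% of all probe sets higher and 11.3% lower. Adamtsl1 led here too, from 5.48, 5.66 and 5.91 at the lowest, median and highest E10.5 array to 6.44, 6.74 and 6.89 (1.02 ± 0.09, 2.03-fold, adjusted p = 1.48e-10). Mmp11 rose without overlap from 7.08, 7.54 and 7.69 to 7.95, 8.38 and 8.56 (0.86 ± 0.06, adjusted p = 9.1e-13). Adamts5 rose by 0.91 ± 0.11 (adjusted p = 9.87e-08), Timp3 by 0.56 ± 0.08 (adjusted p = 1.82e-06) and Timp2 by 0.55 ± 0.06 (adjusted p = 3.01e-08). Timp1 was not called (-0.01 ± 0.09, adjusted p = 0.941). Skeletal muscle markers were higher in 7 of 13 cases (median 0.66), erythroid in 7 of 11 (0.65), cranial mesenchyme in 6 of 12 with 1 lower (0.53) and macrophage in 6 of 13 with 1 lower (0.21), and their part was not tested. Adam21, a gene best known from the testis, was the member that fell (-0.34 ± 0.11, adjusted p = 0.0169), a call lost without replicate 2 of either E10.5 group (0.0522 and 0.094) or of mandibular mesenchyme at E11.5 (0.0549).

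In ectoderm this step could be followed in the mandibular prominence alone, with 3 arrays a side. There 15 members were higher at E11.5 and 7 lower (10 and 7 by gene), where 11.4% of all probe sets were higher and 6.95% lower, and 25 members did not overlap against 37.9% of all probe sets. Timp3 read 5.92, 5.35 and 6.04 at E10.5 and 7.30, 7.59 and 7.36 at E11.5 (1.65 ± 0.12, 3.13-fold, adjusted p = 4.31e-13). Mmp2 read 7.96, 7.67 and 7.96 and then 8.56, 9.21 and 9.26 (1.15 ± 0.13, 2.21-fold, adjusted p = 3.33e-08). Adamts9 rose from 6.14, 5.57 and 6.03 to 6.48, 7.13 and 6.48 (0.78 ± 0.17, adjusted p = 0.00104), with 4 of its 6 probe sets called. Timp2 rose by 0.34 ± 0.09 (adjusted p = 0.0067), and Timp1 was not called (0.06 ± 0.13). Adam21 (-0.59 ± 0.15, adjusted p = 0.00482), Adamts5 (-0.50 ± 0.16, adjusted p = 0.0263) and Mmp23 (-0.44 ± 0.13, adjusted p = 0.0146) fell. The adjusted p of Adamts5 rose to between 0.0508 and 0.255 in 6 other settings, highest without mandibular ectoderm E11.5 replicate 1, and that of Mmp23 to 0.109 without mandibular ectoderm E10.5 replicate 2.

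Markers of other cells moved in the same comparison. All 12 cranial mesenchyme markers were higher in mandibular ectoderm at E11.5 than at E10.5 (median 1.63), and their mean level went from 6.05 to 6.49 across the E10.5 arrays to 7.16 to 8.33. Endothelial markers were higher in 8 of 12 cases (0.73) and erythroid markers in 8 of 11 (0.94), and the part of these cells in the rise of Timp3, Mmp2 and Adamts9 was not tested.

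**Figure D5:**
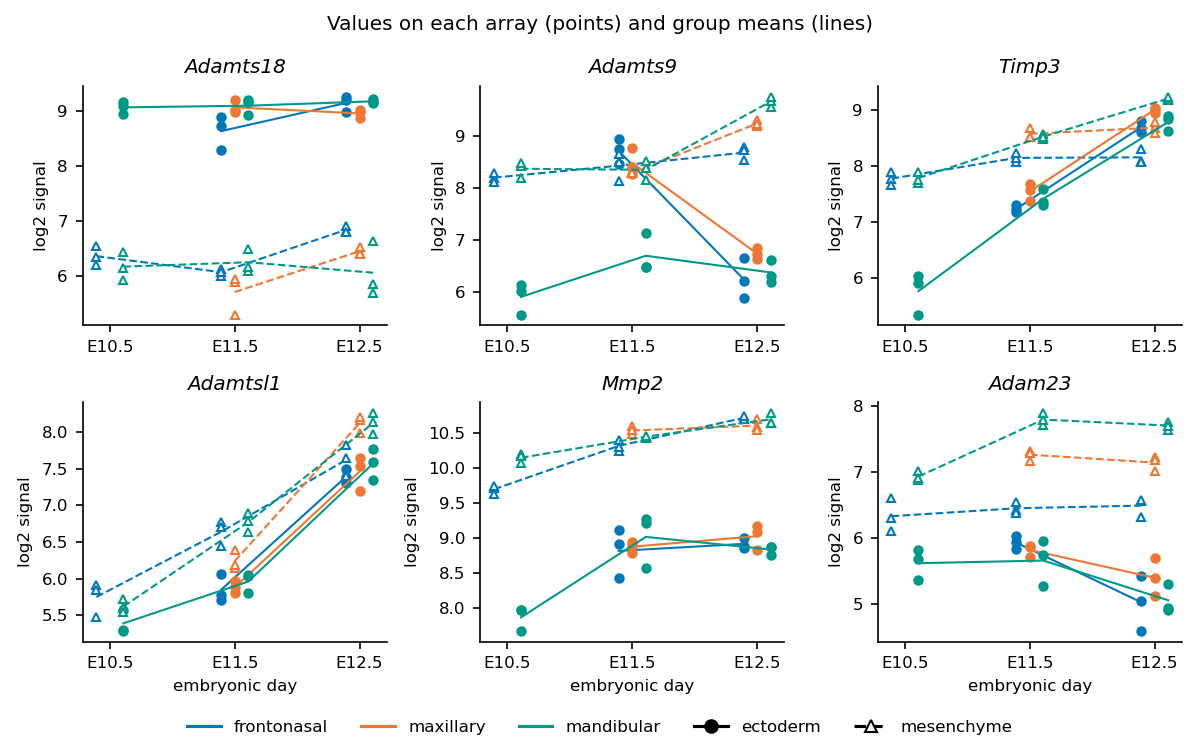
Log2 signal of 6 genes by embryonic day. Points are arrays, lines join group means, colours are prominences, and filled circles with solid lines are ectoderm while open triangles with dashed lines are mesenchyme. Adamts18 separates by layer, Adamts9 is high in frontonasal and maxillary ectoderm at E11.5 alone among ectoderm groups, Timp3 and Adamtsl1 rise with age, and Adam23 in mesenchyme is ordered by prominence.

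A few members were near the detection limit. Mmp3, stromelysin-1, was detected on 12 of 45 arrays, with signals from 3.69 to 4.77, and it was not called in any comparison, nor were Adam4 and Mmp24. Mmp17 was detected on 25 arrays, Adamts8 on 26 and Mmp9 on 27. The range over all arrays was widest for Adamts9, at 4.18 on its most variable probe set, and for Adamts18, at 3.95. It was narrowest for Adam10, at 0.84, between 9.00 and 9.84.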

How the data were processed

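The samples were hybridized to Affymetrix Mouse Gene 1.0 ST arrays. The deposited log2 values were made by the authors with RMA in Affymetrix Power Tools 1.91, with genome build mm9, per the submitters' processing notes. They run from 1.76 to 14.72, with array medians of 5.97 to 6.22. A deposited table gives p-values for detection above background, made with apt 1.8.0 per the file header, and a p under 0.05 counted as detected. A further deposited table holds the authors' q-values of a 3-factor analysis, and it supplied the gene symbols. The 6613 probe sets with a detection p-value alone were not used here. The number of arrays limits the precision.

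The 14472 probe sets whose variance exceeded the median of 0.0414 were fitted with limma 3.58.1 in R 4.3.3 with a mean for each of the 15 groups. The 13 contrasts averaged matched groups with equal weight, tests were two-sided and moderated, and p-values were adjusted by Benjamini-Hochberg over all probe sets tested, with a threshold of 0.05. The fit was tested on simulated data. Tables and figures used Python 3.11.15, pandas 2.3.3, numpy 2.4.6 and matplotlib 3.10.9.

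The members and gene lists were chosen with earlier results of these data known. Values are given for the called members with the largest absolute differences (up to 6 in each direction for the layer, 3 for other comparisons and 3 in all for interactions) and for every Timp. That ranking was by probe set. Because Adamts3 and Adamts9 filled several places, a ranking with 1 place a gene was added after the values were seen, as were the counts on the brightest probe set, the promoters shown and their motifs.

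Residuals of ectoderm and mesenchyme arrays with equal replicate numbers correlated between -0.42 and 0.36 in the 21 pairs. In 10 of them the own number fitted best. The main fit has no replicate block. The block tried as another setting takes each replicate number in common across all groups. A pairing of the layers within a prominence and age was therefore not tested.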

Additional observations from a re-analysis of the deposited data

Results flagged for a closer look

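These results were marked because the same contrast gave different sizes or directions in the layers, by the test of the difference itself. For the change from E11.5 to E12.5 in ectoderm minus that in mesenchyme, 33 members differed, 32 lower and 1 higher. By gene this was 21 of 40, as Adamts3 held 8 of the called probe sets and Adamts9 held 6. Of all probe sets tested, 15.5% were lower and 8.36% higher. Adamts9 stood at -2.34, -2.08 and -2.00 on its 3 leading probe sets, Timp3 at 1.17, Adamts15 at -0.86 and Timp2 at -0.67. For the frontonasal minus mandibular difference in ectoderm minus that in mesenchyme, 32 members differed, 24 higher and 8 lower. By gene this was 22 of 40, and of all probe sets tested 8.63% were higher and 9.83% lower. Adam23 stood at 1.40, Adamts9 at 1.40 and 1.33 on its leading probe sets, Adamts8 at 0.95, Timp1 at 0.64 and Timp3 at 0.58. Groups of 3 arrays are too small to test single arrays as outliers.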

How the results depend on the processing

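Each count of members called was recomputed under 8 other settings and with each array left out in turn. There were also 2 settings chosen after seeing the data (the 3 arrays of lowest weight left out, and the frontonasal groups left out). Leaving out the frontonasal groups was done for the layer, E12.5 against E11.5 in each layer and the interaction by age alone. Counts stayed within 1.5 times the reported ones except in ectoderm between prominences. Fitted to the groups compared alone, frontonasal against mandibular gave 11 in place of 23, maxillary against mandibular 9 in place of 17 and frontonasal against maxillary 1 in place of 4. The cause was not tested. With 1 array left out, these 3 counts ran from 16 to 28, from 9 to 18 and from 3 to 5, and the 9 came without mandibular ectoderm E11.5 replicate 1. With the replicate block the 13 counts were 54, 39, 14, 28, 23, 18, 4, 42, 21, 24, 22, 34 and 31, in the order layer, mesenchyme prominences, ectoderm prominences, E12.5 against E11.5, E11.5 against E10.5 (mesenchyme before ectoderm in both) and the interactions by age and by prominence.
Of 115 named differences in 3286 recomputations, 3221 kept their direction and their side of the threshold, 32 lost and 9 gained a call, and 24 changed sign. All 24 are Timp1 or Timp2 differences that were not called. Timp2 in mesenchyme, frontonasal against maxillary, was -0.02 with arrays centred on medians, -0.01 with array weights, -0.02 without the 3 arrays of lowest weight and -0.02 to 0.03 with 1 array left out. In ectoderm Timp2 was 0.00 for frontonasal against mandibular and 0.01 for frontonasal against maxillary after quantile normalization, and -0.05 to 0.00 for maxillary against mandibular with 1 array left out. Its interaction of layer and prominence was -0.05 with centred arrays and -0.01 to 0.07 with 1 array left out. Timp1 in ectoderm, frontonasal against maxillary, was -0.02 with array weights. From E10.5 to E11.5 Timp1 in mesenchyme was 0.00 after quantile normalization and -0.06 to 0.05 with 1 array left out, and in ectoderm -0.06 to 0.21. Its interaction of layer and age was -0.04 with array weights, -0.02 without the 3 arrays and -0.01 to 0.09 with 1 array left out. Signal near background limits Mmp3, Mmp17, Adamts8 and Mmp9.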
